A study of Mus musculus with 9 samples.

Results

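Ribosome biogenesis and RNA polymerase I genes were followed in LSK cells of mouse bone marrow, a sorted fraction without lineage markers but with Sca1 and cKit, which contains the blood stem cells and the multipotent progenitors. The group was defined as 56 listed gene symbols, and 52 of them were found among the 14940 genes of the expression table. Npm3, Fbl, Wdr74 and Utp4 had no row under these symbols and are not analysed here, apart from a row under an older symbol of Utp4 that is given below. The 9 libraries came from sorted cells of C57BL/6 mice, 3 of them naive. Another 3 mice were taken at day 3 of experimental autoimmune encephalomyelitis (EAE), induced with residues 35 to 55 of myelin oligodendrocyte glycoprotein in complete Freund's adjuvant. The last 3 had the same immunization and received SR59230A, an antagonist of β3 adrenergic receptors, during the 3 days. No allele or transgene is named for any group and no age is given. The labels name neither a vehicle for the EAE mice without the antagonist nor a group given adjuvant alone, so peptide and adjuvant cannot be told apart.

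Ribosomes are assembled in the nucleolus. RNA polymerase I transcribes the ribosomal RNA precursor there, small nucleolar ribonucleoproteins modify it, and separate sets of factors cut and fold it into the small and the large subunit. The transcription factor Myc is known to drive many genes of this pathway, and in blood progenitors ribosome production rises when cells leave quiescence to grow and divide.

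The values are adjusted whole numbers rather than read counts, and neither the depth nor a counting interval can be given. They summed to between 8641735 and 10387955 per library, and each library was divided by a scaling factor between 0.9005 and 1.107. All 52 genes passed the filter on low values, a scaled value of at least 10 in 3 libraries. Group differences were tested with limma-trend over all 12892 genes that passed this filter, adjusted after Benjamini and Hochberg at a threshold of 0.05, and a gene is said to rise or fall only where it passed. Fold changes are on the scale of log2(scaled value + 1). The labels describe the replicates as separate mice. In bulk RNA, fewer cells of a type and less RNA per cell cannot be told apart. The genes of the sort gate were present in every library: Kit had means of 6876 ± 345 (naive), 5116 ± 236 (EAE) and 5049 ± 105 (treated; SD, n = 3 each), and Ly6a, which encodes Sca1, of 1531 ± 182, 2099 ± 255 and 2433 ± 100.

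The first comparison asks what 3 days of immunization changed. Of the 52 genes, 28 rose and 0 fell in EAE against naive mice, beside 9.24% of all tested genes that rose and 5.14% that fell. An unadjusted p under 0.05 by limma-trend was reached by 3735 of all 12892 tested genes, counting both directions. Among the 52 genes, 33 were higher and 0 lower at that level. The log2 fold change had a median of 0.36 and ran from -0.12 to 0.69, while over all tested genes the median was -0.00. Of the 52, 49 had a positive log2 fold change, against 49.8% of all tested genes. In 34 of the 52 every EAE library lay above every naive library, beside 21.1% of all tested genes, and in 1 of the 52 every EAE library lay below, beside 18.4%. The number that rose depended on the processing. It was 10 without scaling, where 4.66% of all genes rose, 16 with upper-quartile scaling (5.76% of all genes), 9 without the mean-variance trend (3.43%) and 0 with a term for chemosensory receptor genes, described below. It was 17 without naive replicate 1, where 6.43% of all genes rose, and between 21 and 34 when each other library was left out, with up to 12.9% of all genes. Apart from the fit with the chemosensory term, 8 genes passed in all 18 alternative fits: Ddx21, Heatr1, Nhp2, Noc3l, Nop2, Rrp1b, Tsr1 and Wdr75. The other 20 lost their call in at least 1 of these fits. The share of all tested genes that passed in every one of these fits was not counted.

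**Figure D1:**
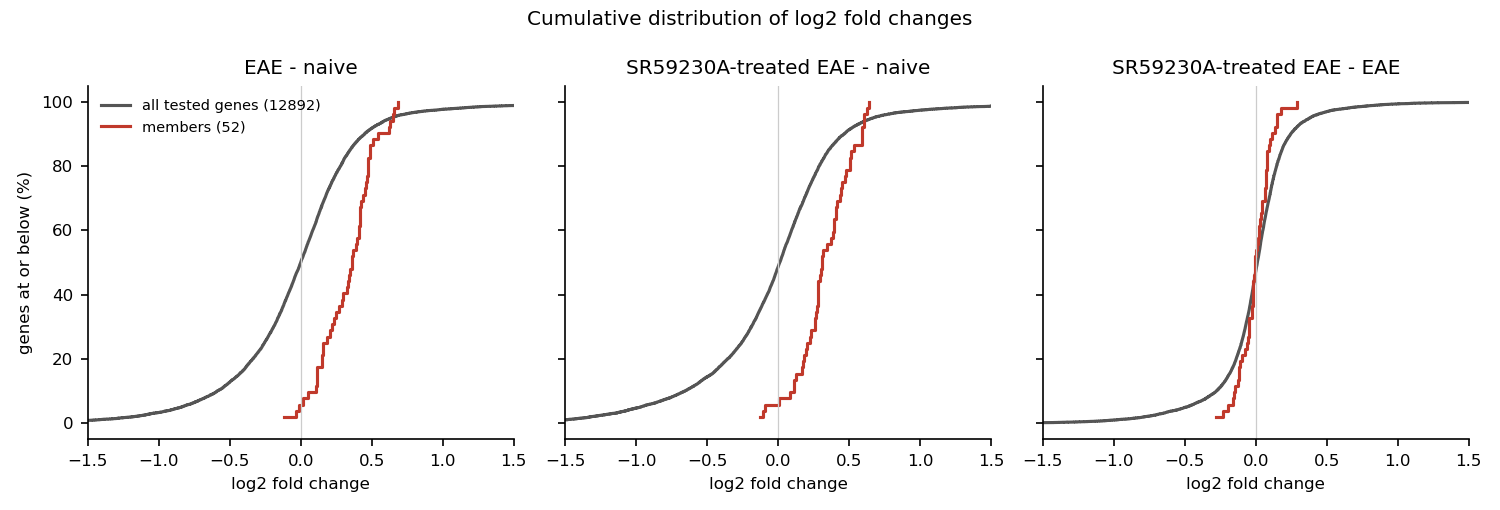
Cumulative share of genes (y axis, in percent) at or below each log2 fold change (x axis) in the 3 comparisons, for the 52 ribosome biogenesis genes and all 12892 tested genes. In both comparisons with naive mice 49 of the 52 genes lie to the right of zero, with medians of 0.36 and 0.31 over all 52. Their values run from -0.12 to 0.69 in EAE and from -0.13 to 0.64 in treated mice. All tested genes run from -4.05 to 5.65 and from -3.57 to 5.52, partly outside the drawn axis. In treated against untreated EAE mice the curves cross near zero.

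Myc was the regulator in the group. Its scaled values were 3773, 4028 and 3768 in naive, 5043, 4758 and 5382 in EAE and 6063, 5220 and 4820 in treated libraries. Every EAE and every treated library lay above every naive library, and the EAE and treated libraries overlapped. Myc rose by 0.39 ± 0.11 on the log2 scale (SE) in EAE mice, 1.31-fold, with adjusted p = 0.0326. That call was lost without scaling, with upper-quartile scaling, without the mean-variance trend and without naive replicate 1.

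Myc binds the E-box CACGTG together with its partner Max. RefSeq promoter sequences on GRCm38.p6, each running from 250 bases before to 50 bases after the annotated start, were found for 44 of the 52 genes. CACGTG, which reads the same on both strands, occurred in 10 of these 44 promoters (22.7%). The share was 8.09% over 27025 genes with a promoter entry. It was 10.9% over the 9785 of the 12892 tested genes that had one, and it may differ for the tested genes without an entry. It was 9 of 33 (27.3%) in translation factors, 16 of 98 (16.3%) in other ribosome biogenesis genes and 2 of 14 (14.3%) in nucleotide synthesis genes. In DNA replication genes it was 1 of 18 (5.56%) and in G2/M genes 1 of 20 (5%). Of the members, it was 6 of 24 (25%) among the genes that rose in EAE mice and 4 of 20 (20%) among the others. Rrn3 held the motif at 2 places, so that there were 11 matches, of which 5 lay before and 6 after the annotated start. The matches after a start lie in transcribed sequence. All 11 are shown as windows of 30 bases, so that the flanks of the E-box can be compared between genes that rose and genes that did not; most of these genes were chosen for display after their values were seen. The windows read 5′ to 3′ in the direction of transcription, with the E-box in capitals, and positions count its first base, with the annotated start as base 1. The first 6 genes rose in EAE mice and the last 4 did not pass.
Tsr1, chr11:74898092-74898121, plus strand, E-box from 25 bases after the start: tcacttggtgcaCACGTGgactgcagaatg
Nop2, chr6:125131811-125131840, plus strand, E-box from 60 bases before the start: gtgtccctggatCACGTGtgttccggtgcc
Utp20, chr10:88826765-88826794, minus strand, E-box from 38 bases after the start: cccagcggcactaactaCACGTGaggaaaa
Wdr43, chr17:71616220-71616249, plus strand, E-box from 18 bases after the start: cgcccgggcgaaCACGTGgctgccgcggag
Mybbp1a, chr11:72441347-72441376, plus strand, E-box from 41 bases after the start: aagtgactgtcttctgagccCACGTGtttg
Ltv1, chr10:13193092-13193121, minus strand, E-box from 29 bases after the start: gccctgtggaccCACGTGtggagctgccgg
Pes1, chr11:3963965-3963994, plus strand, E-box from 3 bases after the start: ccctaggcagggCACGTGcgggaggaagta
Nol11, chr11:107189407-107189436, minus strand, E-box from 43 bases before the start: cttgagcgttcgCACGTGgtctagactcca
Utp18, chr11:93885769-93885798, minus strand, E-box from 20 bases before the start: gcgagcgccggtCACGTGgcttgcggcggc
Rrn3, chr16:13780472-13780501, plus strand, E-box from 215 bases before the start: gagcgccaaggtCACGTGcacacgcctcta
Rrn3, chr16:13780639-13780668, plus strand, E-box from 48 bases before the start: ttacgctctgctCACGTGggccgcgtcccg

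A match in these letters is a description of the sequence, and binding was not measured. Among the members with a log2 fold change at or above the members' median in EAE mice, 5 of 22 promoters (22.7%) held the motif. Over all members with a promoter it was 10 of 44 (22.7%). A link between the motif and the changes was not tested.

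Of the 7 genes of RNA polymerase I and its initiation, 2 rose in EAE mice, with a median log2 fold change of 0.16. Polr1a, the largest subunit of the polymerase, stood at 1896, 1917 and 1763 in naive, 2124, 2477 and 2450 in EAE and 2429, 2381 and 2583 in treated libraries. All 6 libraries of immunized mice lay above the naive ones. Polr1a rose by 0.34 ± 0.10 in EAE mice (adjusted p = 0.0365), a call lost under both other scalings, without the mean-variance trend and without naive replicate 1, naive replicate 3 or EAE replicate 2. The subunit gene Polr1e rose by 0.41 ± 0.13 (adjusted p = 0.0475), from 379 ± 24.1 to 508 ± 70.3 (SD, n = 3 each). That call too was lost under both other scalings, without the filter and without the mean-variance trend. It was also lost without naive replicate 1, EAE replicate 1 or EAE replicate 2.

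Polr1b, the second largest subunit, was measured at 434, 471 and 428 in naive, 472, 491 and 478 in EAE and 529, 535 and 532 in treated libraries. These 3 groups did not overlap with each other, but the log2 fold change in EAE against naive mice was 0.11 ± 0.10 and did not pass (adjusted p = 0.471). Polr1c, a subunit shared with RNA polymerase III, had a log2 fold change of 0.25 ± 0.10 and did not pass either (adjusted p = 0.139).

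Of the factors that bring the polymerase to its promoter, those among the 52 genes, Ubtf and Rrn3, did not pass. Ubtf, which binds the ribosomal RNA gene promoter, stood at 258, 304 and 257 in naive, 315, 268 and 329 in EAE and 271, 249 and 230 in treated libraries, with overlap between the naive libraries and each of the other groups. Rrn3, the factor that makes the polymerase able to initiate, stood at 390, 418 and 423 in naive, 442, 413 and 366 in EAE and 401, 397 and 359 in treated libraries, again with overlap. Tcof1, the nucleolar protein treacle, was the lowest of the 52 in log2 fold change, at -0.12 ± 0.09 in EAE mice (adjusted p = 0.434). Its mean was 724 ± 24.7 in naive and 667 ± 35.0 in EAE mice, and it was the gene whose EAE libraries all lay below the naive ones.

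Among 5 nucleolar factors, 3 rose in EAE mice: Npm1, Ddx21 and Mybbp1a. Npm1, the abundant nucleolar chaperone nucleophosmin, stood at 10210, 11528 and 10736 in naive, 15355, 15174 and 14329 in EAE and 16668, 15689 and 14590 in treated libraries. The lowest value after immunization exceeded the highest naive value, and Npm1 rose by 0.47 ± 0.11, 1.38-fold (adjusted p = 0.0173). This call was lost without scaling and without the mean-variance trend. Ddx21, a nucleolar RNA helicase, rose by 0.47 ± 0.09 (adjusted p = 0.0052), and Mybbp1a, a nucleolar Myb-binding protein, by 0.39 ± 0.11 (adjusted p = 0.0359).

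Ncl, which encodes nucleolin, varied within each group: it was 6275, 7743 and 5846 in naive, 8299, 6806 and 9853 in EAE and 9416, 6836 and 5738 in treated libraries. The 3 groups overlapped, and its log2 fold change of 0.33 ± 0.19 in EAE mice did not pass (adjusted p = 0.291). Nolc1, which carries small nucleolar ribonucleoproteins, had the lowest values of the group, between 21.9 and 33.4, with a log2 fold change of 0.22 ± 0.30.

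Small nucleolar ribonucleoproteins come in a box C/D class, which methylates ribosomal RNA, and a box H/ACA class, which converts uridine to pseudouridine. Of the C/D proteins, Nop56 and Nop58 rose in EAE mice by 0.41 ± 0.11 and 0.41 ± 0.10 (adjusted p = 0.0241 and 0.018). Their means went from 6250 ± 631 to 8295 ± 450 and from 2947 ± 128 to 3901 ± 182. Of the 4 H/ACA proteins, Nhp2 and Nop10 rose. Nhp2 stood at 1058, 1322 and 1149 in naive, 1870, 1930 and 1616 in EAE and 1617, 1702 and 1659 in treated libraries, with no overlap between naive and immunized mice. It rose by 0.62 ± 0.11, 1.54-fold (adjusted p = 0.00361).

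Nop10 stood at 2576, 2636 and 2678 in naive, 3698, 4360 and 3492 in EAE and 3818, 4086 and 4362 in treated libraries. The naive libraries lay close together and below all others, and Nop10 rose by 0.55 ± 0.10, 1.46-fold (adjusted p = 0.0062), though not without the mean-variance trend. Dkc1, the pseudouridine synthase of the complex, had a log2 fold change of 0.27 ± 0.12 and did not pass (adjusted p = 0.15). Gar1 had one of 0.15 ± 0.18 (adjusted p = 0.611).

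Of the 17 small-subunit factors, 10 rose and 0 fell in EAE mice, and all 17 had positive log2 fold changes, with a median of 0.36. Most belong to the small-subunit processome, the large particle that forms on the nascent precursor. Wdr75, a subunit that acts at the first stage of its assembly, stood at 711, 750 and 682 in naive, 1047, 1147 and 1253 in EAE and 1063, 1031 and 1132 in treated libraries. The naive libraries lay below all others, and Wdr75 rose by 0.69 ± 0.10, 1.61-fold (adjusted p = 0.0013), the highest log2 fold change of the 52. Heatr1, which acts in the same subcomplex, stood at 770, 831 and 881 in naive, 1376, 1204 and 1247 in EAE and 1179, 1164 and 1098 in treated libraries. It rose by 0.63 ± 0.10, 1.54-fold (adjusted p = 0.00177).

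Rrp12, which works in maturation of the subunit precursors, stood at 304, 388 and 316 in naive, 480, 512 and 419 in EAE and 528, 513 and 471 in treated libraries. It rose by 0.49 ± 0.13 (adjusted p = 0.0272), but not under the other scalings, without the mean-variance trend, or without naive replicate 1 or EAE replicate 2. The other small-subunit factors that rose were Utp14a, Tsr1, Nol10, Utp20, Utp15, Wdr43 and Ltv1, between 0.33 for Ltv1 and 0.47 for Utp14a. Tsr1 and Ltv1 act late, on the precursor in the cytoplasm. Noc4l, at 0.34 ± 0.11, was just outside the threshold (adjusted p = 0.0537), and Rrp9, Nop14, Nol11, Nol6, Utp18 and Ddx10 had log2 fold changes between 0.05 and 0.29 without passing. The row under Cirh1a, which RefSeq lists as an older symbol of Utp4, had a log2 fold change of 0.25 ± 0.11 (adjusted p = 0.157) and is not counted among the 52.

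Of the 16 large-subunit factors, 8 rose and 0 fell in EAE mice, with a median log2 fold change of 0.36. Rrp1b, a nucleolar protein of large-subunit processing, stood at 766, 883 and 794 in naive, 1262, 1354 and 1217 in EAE and 1235, 1230 and 1236 in treated libraries. The treated libraries were nearly equal and lay among the EAE ones, above all naive libraries. Rrp1b rose by 0.65 ± 0.09, 1.57-fold, with the smallest adjusted p of the 52 (0.0012). Nop16 stood at 743, 841 and 868 in naive, 1372, 1438 and 1051 in EAE and 1191, 1307 and 1267 in treated libraries. EAE replicate 3 was the lowest after immunization and still above the naive libraries, and Nop16 rose by 0.65 ± 0.13 (adjusted p = 0.00633), though not without the mean-variance trend.

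Nop2, a methyltransferase of the large-subunit ribosomal RNA whose E-box window is shown above, stood at 819, 922 and 876 in naive, 1252, 1313 and 1153 in EAE and 1244, 1339 and 1352 in treated libraries. It rose by 0.51 ± 0.09, 1.42-fold (adjusted p = 0.00545), with no overlap between naive and immunized mice. Bop1, Pes1 and Wdr12 form 1 complex of large-subunit processing. Bop1 and Wdr12 rose by 0.43 ± 0.12 and 0.37 ± 0.10 (adjusted p = 0.042 and 0.032), and Pes1, at 2095 ± 129 in naive and 2470 ± 357 in EAE mice, did not pass with 0.23 ± 0.11 (adjusted p = 0.21).

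Paralogous and related large-subunit genes gave different values. The nucleolar GTPase gene Gnl3, also called nucleostemin, rose by 0.47 ± 0.09 (adjusted p = 0.0067), from 1153 ± 87.8 to 1592 ± 63.1. Its relative Gnl2 stood at 918 ± 44.6 and 927 ± 30.2, with a log2 fold change of 0.01 ± 0.09 and an interval from -0.18 to 0.21. Rrp1, the relative of Rrp1b, had a log2 fold change of 0.15 ± 0.10 and did not pass (adjusted p = 0.341). No difference between such genes was tested. Noc3l and Nol8 also rose, by 0.49 ± 0.09 and 0.36 ± 0.10. Nol9, the polynucleotide kinase of precursor processing, had 0.43 ± 0.15 without passing (adjusted p = 0.0825), and the helicase Ddx18 had -0.04 ± 0.11.

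**Figure D2:**
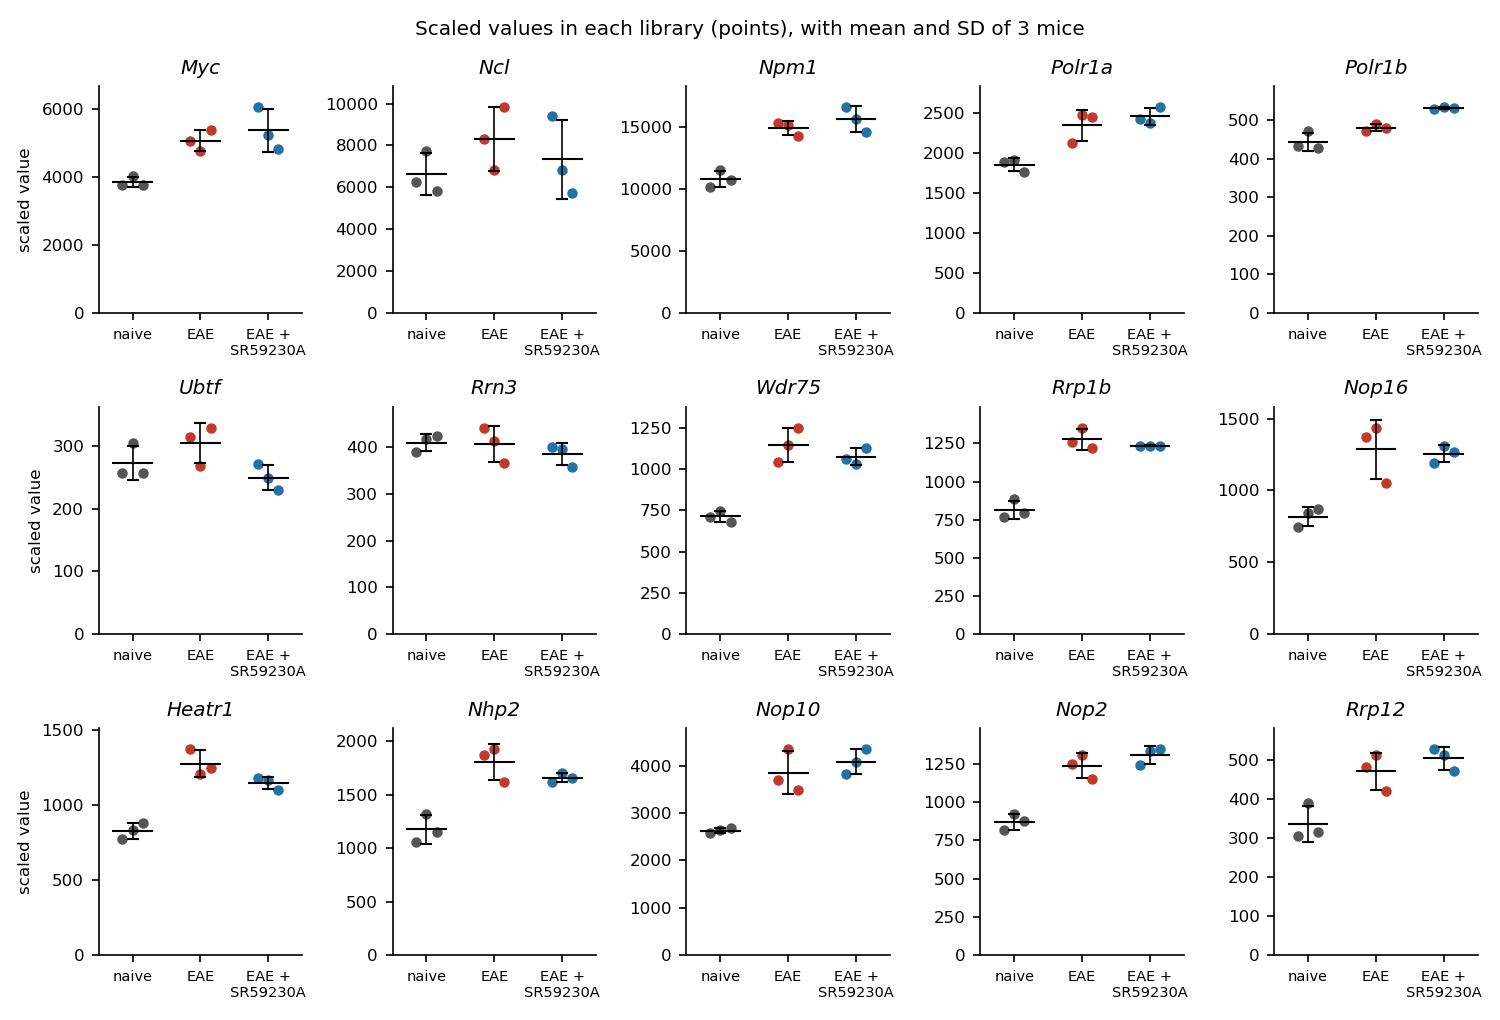
Scaled values (y axis, from 0, a separate scale for each gene) in each library of the 3 groups (x axis) for Myc, 6 other central genes and the 8 genes with the largest log2 fold changes among those that rose in EAE mice. Points are mice, horizontal lines are means and bars are SDs of 3 mice. In the 8 genes that were named for their size of change the naive libraries lie below all libraries of immunized mice, and in Ncl, Ubtf and Rrn3 the groups overlap.

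Exon overlaps bear on some of these values, since no source used here gives the authors' counting or its use of strand. In GENCODE M21, 21 of the 52 genes share exon sequence with another gene, 4 of them on the same strand and 19 on the opposite strand. Ncl, Nop56, Nop58 and Gnl3 share it with small nucleolar or other small RNA genes that they host, and Rrp1b, Nhp2 and Heatr1 with Hsf2bp, Rmnd5b and Lgals8 on the opposite strand. For the genes on opposite strands the reads cannot be told apart without strand, and for those on the same strand not with it either.

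The rest of the pathway was described with a list of 135 further ribosome biogenesis symbols, of which 118 were tested. Of these, 33 rose and 0 fell in EAE mice, with a median log2 fold change of 0.22 and 108 positive values. Over all tested genes 9.24% rose and 5.14% fell. Pno1, a small-subunit maturation factor, rose by 0.67 ± 0.10, the exosome subunit gene Exosc8 by 0.63 ± 0.09, Pop1, a protein of the RNase P and MRP enzymes, by 0.69 ± 0.11, and the processome gene Fcf1 by 0.57 ± 0.09. Of 42 translation factors, 13 rose and 0 fell, with a median of 0.23, among them Eif4e, the cap-binding protein, by 0.49 ± 0.09 and Gspt1, a termination factor, by 0.52 ± 0.10. Of 16 nucleotide synthesis genes, 7 rose and 0 fell, with a median of 0.28, among them Ctps, which makes CTP, by 0.68 ± 0.09.

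Of 83 cytosolic ribosomal protein symbols only 18 were tested, of which 3 rose and 0 fell with a median of 0.24, so the list covers a small share of that family. Rps27l rose by 0.75 ± 0.11. None of 22 genes of RNA polymerase III and its factors passed in either direction by limma-trend (median 0.08, with 3 higher and 1 lower at an unadjusted p under 0.05), and 2 of 11 RNA polymerase II subunit genes rose, among them Polr2h, which all the nuclear RNA polymerases share, by 0.49 ± 0.09. Among 14 genes of the Myc network, 2 rose and 2 fell. Max, the partner of Myc, rose by 0.34 ± 0.09, and Mxd1, which competes with Myc for Max, by 0.36 ± 0.11. Mxd4, another such competitor, fell by 0.73 ± 0.12, and the paralog Mycn fell by 0.98 ± 0.19.

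Markers of other states moved with these genes. Of 23 DNA replication genes 9 rose, and of 24 G2/M genes 13 rose, with medians of 0.34 and 0.36 and 0 lower in either list. Over all tested genes 9.24% rose and 5.14% fell. Of 13 granulocyte-monocyte progenitor markers, 11 rose and 0 fell, and their summed scaled level went from between 4131 and 4982 in naive to between 19266 and 24779 in EAE and between 19712 and 21285 in treated libraries. Of 17 stem cell markers 10 fell and 1 rose, and their sum went from between 22558 and 24891 to between 15519 and 16590 in EAE and between 16332 and 17127 in treated libraries. Kit and Ly6a, the genes of the sort gate whose means are given above, are part of this list and of its sum. None of the markers found in the table for these lists was at 0 in all libraries. Of 11 mature neutrophil markers 2 rose and 1 fell, of 7 B cell markers 3 fell, and of 7 stromal and endothelial markers 3 fell. Of 11 erythroid markers 2 rose and 3 fell, of 8 megakaryocyte markers 2 rose, and of 5 T and natural killer cell markers 2 rose and 1 fell. The part of a change in cell makeup or cell cycle in the rise of the ribosome biogenesis genes was not tested.

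Chemosensory receptor genes, which are not known to act in blood progenitors, held 0.151% to 0.181% of the values in naive, 0.107% to 0.121% in EAE and 0.0807% to 0.1% in treated libraries, with no overlap between the groups. With a term for that share in the model, 0 of the 52 genes passed in EAE against naive mice and 0.504% of all tested genes rose. Because the share differs between the groups without overlap, the term also takes up differences between groups. This fit therefore cannot separate the term from the group, and the loss of calls in it decides nothing about the 52 genes. The median log2 fold change of the 52 genes was 0.31 with that term, beside 0.36 without it, and 42 of the 52 were positive. Myc was among the other 10, at -0.04. In treated against naive mice the median was 0.35 with the term and 0.31 without it, with 41 of the 52 positive.

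The libraries also differed within the groups. The median deviation of the 52 genes from their naive mean on the log2 scale was -0.07, 0.05 and 0.00 for naive, 0.38, 0.39 and 0.27 for EAE and 0.37, 0.34 and 0.31 for treated replicates 1 to 3. EAE replicate 3 had the lowest EAE value for 30 of the 52 genes, and naive replicate 1 the lowest naive value for 31. Even so, every library of immunized mice lay above every naive library. The summed share of all values held by the 52 genes was 0.824% to 0.864% in naive, 0.994% to 1.04% in EAE and 0.948% to 1.04% in treated libraries.

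**Figure D3:**
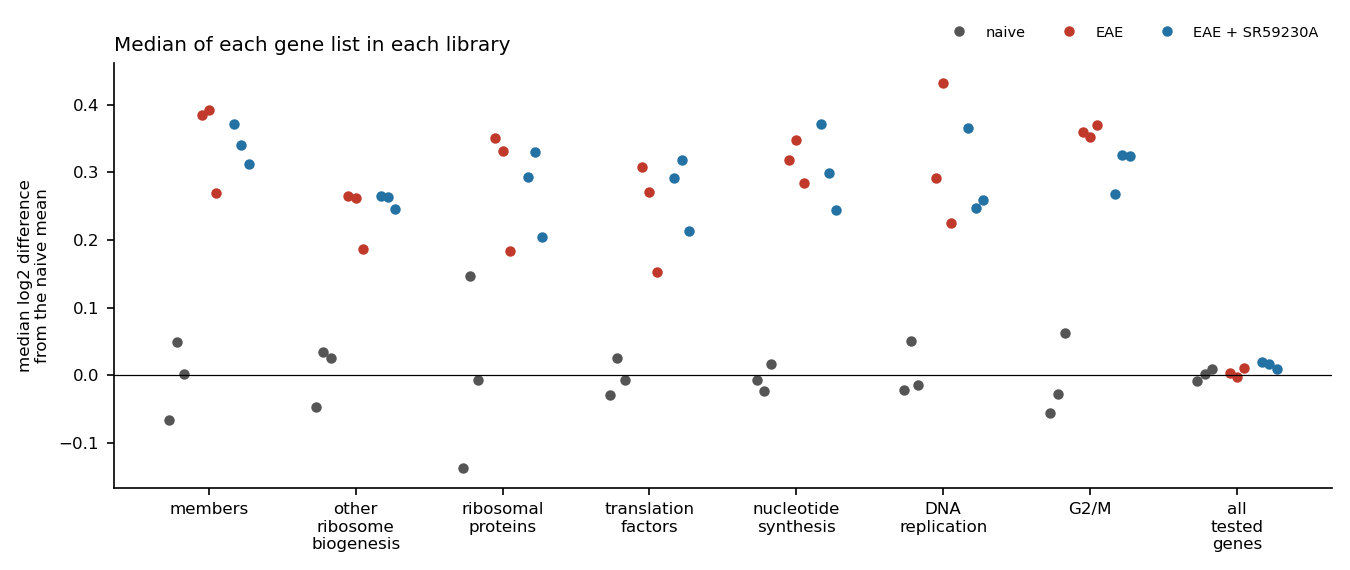
Median log2 difference from the naive mean (y axis) in each library, for the ribosome biogenesis genes (members), 6 other gene lists and all tested genes (x axis). Each point is 1 library, coloured by group. The 52 genes have medians between 0.27 and 0.39 in the 6 libraries of immunized mice and between -0.07 and 0.05 in the naive libraries, while the medians of all tested genes stay near 0.

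The second comparison asks about the antagonist, given to immunized mice. None of the 52 genes passed in either direction in treated against untreated EAE mice, beside 0.00776% of all tested genes that rose and 0% that fell. The median log2 fold change of the 52 genes was -0.00, over a range from -0.28 to 0.29, and 25 of the 52 were positive. At an unadjusted p under 0.05 there was 1 of the 52 genes and 497 of all tested genes by limma-trend, and without the missing directions as covariates 5 and 1327. The number of all tested genes was 281 without treated replicate 2. The unadjusted 95% interval of a log2 fold change extended by 0.23 on each side at the median, and no interval of the 52 genes reached beyond 0.68 in either direction. Values inside a gene's interval are compatible with its data. In Nol10, Noc2l, Polr1b and Ddx18 (4 genes) every treated library lay above every EAE library, beside 8.5% of all tested genes, and in Heatr1, Utp20 and Tsr1 (3 genes) every treated library lay below, beside 7.6%.

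Ddx18, a helicase of large-subunit assembly, was the gene with the unadjusted p under 0.05. It stood at 573, 628 and 597 in naive, 620, 600 and 538 in EAE and 790, 733 and 632 in treated libraries, so that the treated libraries lay above both other groups. Its log2 fold change was 0.29 ± 0.11, with unadjusted p = 0.0251 and adjusted p = 0.998. Ubtf, whose values are given above, had the lowest log2 fold change, -0.28 ± 0.14 (adjusted p = 0.998).

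The next smallest p values were those of Tsr1, Nol10 and Heatr1. Tsr1 stood at 1097, 1186 and 1088 in naive, 1496, 1583 and 1553 in EAE and 1419, 1367 and 1396 in treated libraries, and its treated libraries lay between the other groups. Nol10, a processome protein, stood at 564, 608 and 613 in naive, 835, 807 and 794 in EAE and 868, 925 and 917 in treated libraries, with the treated libraries highest. Their log2 fold changes in treated against EAE mice were -0.15 ± 0.09 for Tsr1, 0.15 ± 0.09 for Nol10 and -0.15 ± 0.10 for Heatr1, all with adjusted p = 0.998.

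For the central genes the differences in treated against untreated EAE mice were 0.08 ± 0.11 for Myc (interval from -0.16 to 0.32), 0.06 ± 0.11 for Npm1 and -0.20 ± 0.19 for Ncl. They were 0.07 ± 0.10 for Polr1a, 0.15 ± 0.10 for Polr1b and -0.08 ± 0.11 for Rrn3. The sign for Myc turned without scaling and without treated replicate 1, that for Npm1 without scaling, and that for Polr1a without scaling and without EAE replicate 1.

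In the third comparison, treated EAE mice were set against naive mice, and 25 of the 52 genes rose and 0 fell, beside 10.4% and 4.66% of all tested genes. The median log2 fold change was 0.31, over a range from -0.13 to 0.64. In 40 of the 52 genes every treated library lay above every naive library, beside 26.7% of all tested genes, and in 1, Tcof1, every treated library lay below, beside 22.2%. This comparison uses the same naive libraries as the first, so the values are given side by side and their likeness is no separate evidence. The number that rose was 6 without scaling (3.76% of all genes), 15 with upper-quartile scaling (6.18%), 7 without the mean-variance trend (4.06%), 0 with the chemosensory term (0.14%) and 39 with the 6 libraries of these groups alone (21.1%). Ddx21, Nol10, Nop10, Nop2, Rrp1b and Wdr75 passed in all 18 fits without the chemosensory term, and the other 19, Myc, Npm1 and Polr1a among them, lost their call in at least 1. Here too, no such count was made over all tested genes. Without scaling the median of all tested genes was -0.11, and the median of the 52 genes lay 0.30 above it, as it did with scaling.

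The 8 genes with the largest rises in treated mice were Nop10 by 0.64 ± 0.10, Nop16 by 0.62 ± 0.12, Nol10 by 0.60 ± 0.09, Rrp1b by 0.60 ± 0.09, Wdr75 by 0.59 ± 0.10, Rrp12 by 0.59 ± 0.13, Nop2 by 0.59 ± 0.09 and Npm1 by 0.53 ± 0.11. Their adjusted p lay between 0.00167 for Nol10 and 0.0119 for Rrp12. Myc rose by 0.47 ± 0.11 (adjusted p = 0.0143) and Polr1a by 0.41 ± 0.10 (adjusted p = 0.0158). Polr1b had 0.26 ± 0.10 (adjusted p = 0.0913), Ncl 0.13 ± 0.19, Rrn3 -0.09 ± 0.11 and Ubtf -0.13 ± 0.14, none of which passed.

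By role, 1 of 7 polymerase I genes, 2 of 5 nucleolar factors, 1 of 2 box C/D and 2 of 4 box H/ACA proteins, 10 of 17 small-subunit and 8 of 16 large-subunit factors rose in treated against naive mice. The share of all tested genes that rose was 10.4%. Of the 52 genes, 23 passed in both comparisons with naive mice, 5 in EAE mice alone, 2 in treated mice alone and 22 in neither. Over all tested genes no such count was made, and both comparisons use the same naive libraries. The 5 were Polr1e, Mybbp1a, Nop58, Utp14a and Nol8, and the 2 were Noc4l and Pes1. None of these 7 is shown to respond differently, because each had adjusted p = 0.998 in treated against untreated EAE mice. Pes1 had log2 fold changes of 0.23 ± 0.11 in EAE and 0.41 ± 0.11 in treated mice against naive mice, and Nop58 of 0.41 ± 0.10 and 0.28 ± 0.10.

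**Figure D4:**
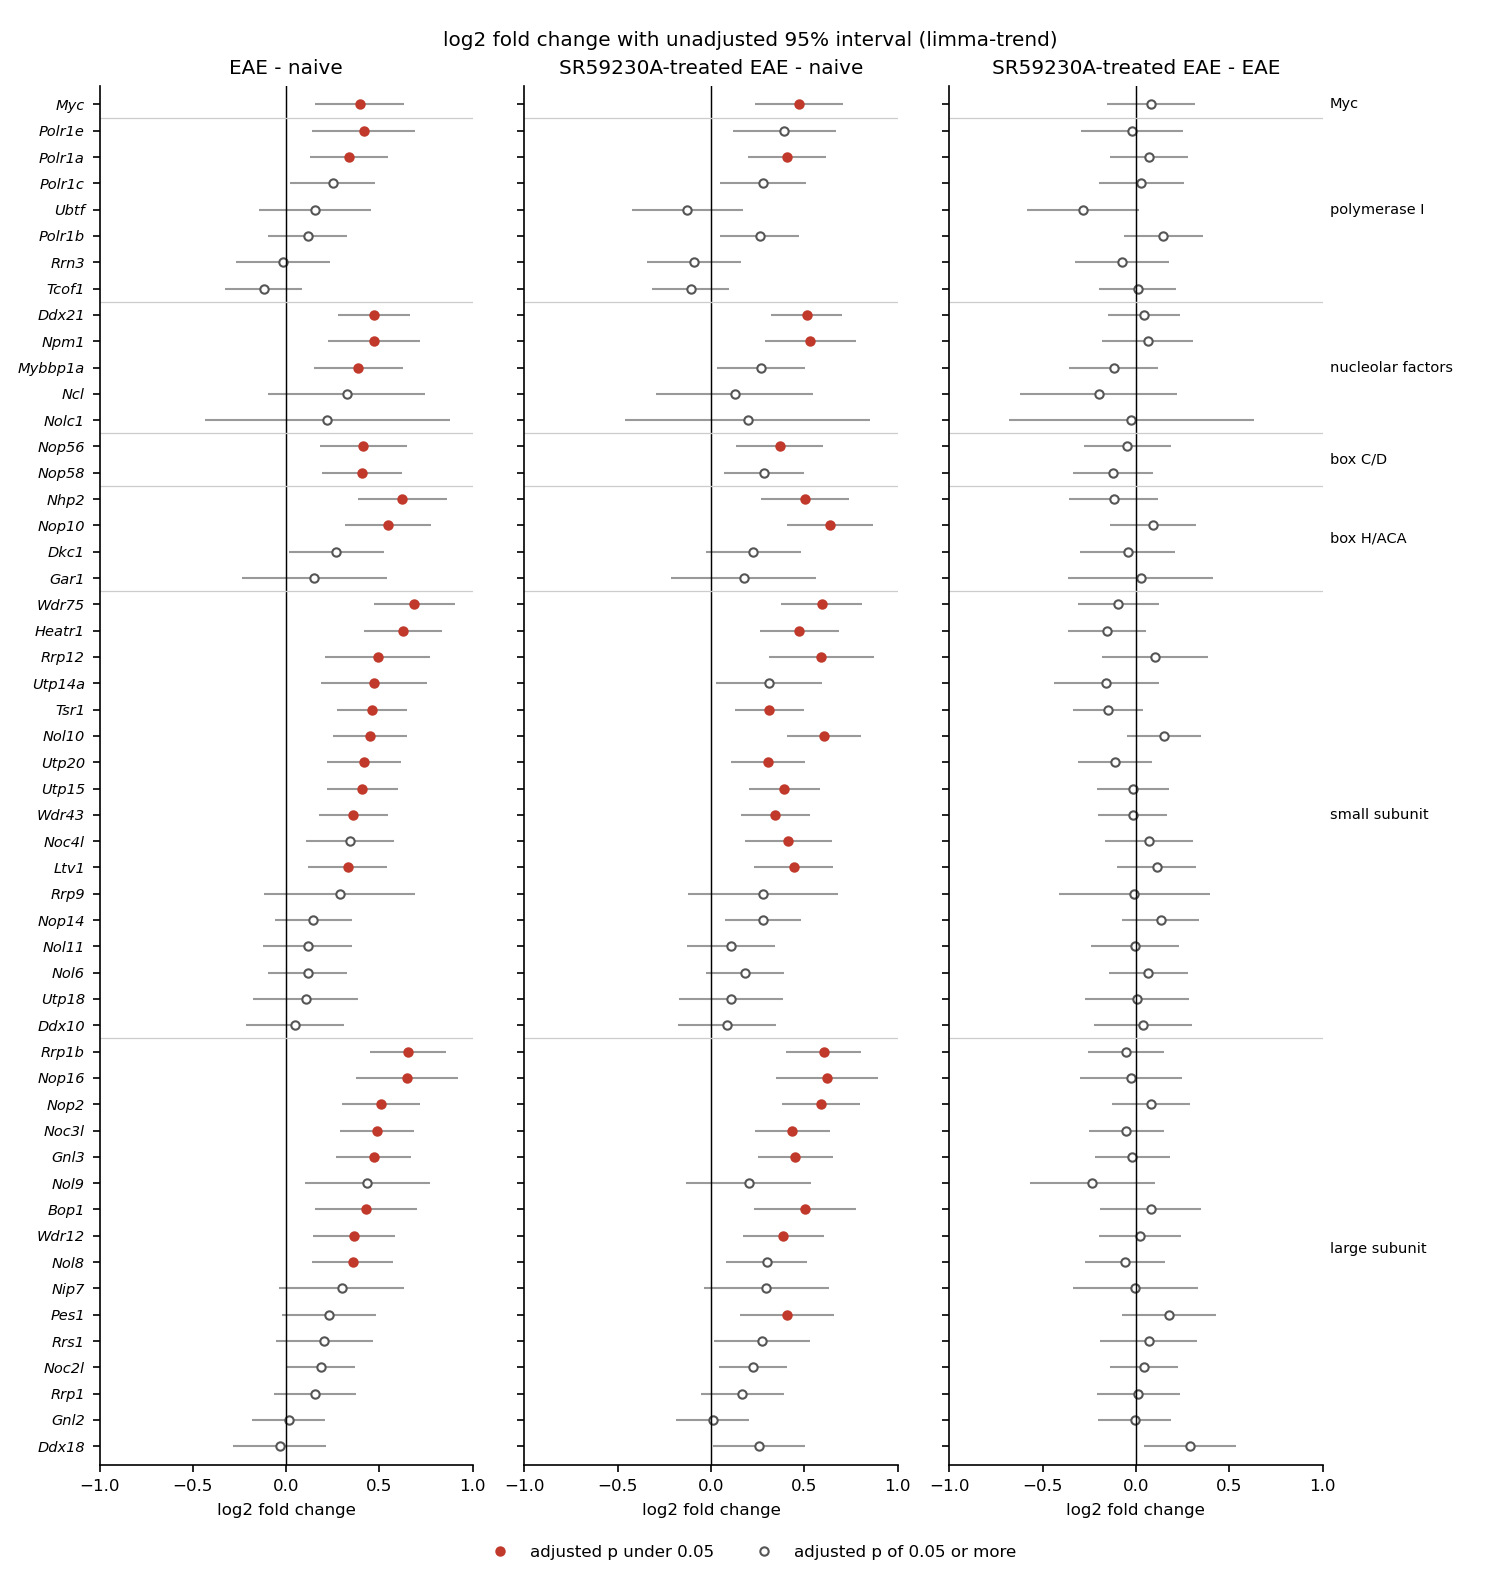
Log2 fold change of each of the 52 genes (x axis) with its unadjusted 95% interval in the 3 comparisons, with genes (y axis) grouped by role and ordered by the first comparison. Filled points have an adjusted p under 0.05 by limma-trend. The filled points, 28 in EAE and 25 in treated against naive mice, lie to the right of zero, and the panel of treated against untreated EAE mice has none.

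In treated against naive mice 34 of the 118 further ribosome biogenesis genes, 14 of 42 translation factors, 9 of 16 nucleotide synthesis genes, 8 of 23 DNA replication genes and 11 of 24 G2/M genes rose, and 0 fell in these lists. Over all tested genes 10.4% rose and 4.66% fell.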

How the data were processed

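RNA was measured in 9 libraries of sorted LSK cells, 3 per group, each described by the labels as a separate mouse. RNA was isolated with the RNeasy micro kit, per the labels' protocols. The authors deposited 1 table of whole numbers, treated here as a score because the 9 libraries are tied by 2 linear relations, which independent read counts would not show. The aligner, the counting, the annotation and the build are all steps not given in the sources used here. DESeq2 appears in the submitters' processing notes, with neither version nor role. Over the 4577 genes with a mean of at least 500, the 2 missing directions held 7.65e-05% and 6.77e-05% of the variance and fell almost wholly inside the groups (99.4% and 99.8%). The spread between mice may therefore be understated, and groups may overlap less than they would.

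Libraries were scaled by median of ratios, and log2(scaled value + 1) was fitted with limma 3.58.1 in R 4.3.3 (limma-trend, two-sided), with a coefficient per group and both missing directions as covariates, leaving 4 residual and 7.48 prior degrees of freedom. The gene group, its roles and all lists were chosen with earlier results of these data known. Values in every library are given for Myc, Ncl, Npm1, Polr1a, Polr1b, Ubtf and Rrn3, for the 8 genes with the largest changes among those that passed in a comparison and, where fewer than 3 passed, the 5 with the smallest unadjusted p. From other lists up to 4 genes with the smallest adjusted p are named. Scaling, pseudocount, filter, covariates, trend, libraries in the fit and each library in turn were varied.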

Additional observations from a re-analysis of the deposited data

How the results depend on the processing

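The number of the 52 genes that rose in EAE against naive mice was 28, and it was 10 without scaling, 16 with upper-quartile scaling, 9 without the mean-variance trend and 0 with the chemosensory term. Leaving out 1 library gave 17 to 34, with 6.43% to 12.9% of all tested genes. In treated against naive mice the number was 25, with 6, 15, 7 and 0 under the same settings, 39 with the 6 libraries alone and 18 to 35 with 1 library left out (7.26% to 16.4% of all genes). The number that fell was 0 in every fit of each comparison, and so was the number that rose in treated against untreated EAE mice. All called genes split into 64.2% higher in EAE against naive mice, 57.2% without scaling and 43.4% with upper-quartile scaling, and into 69.0%, 45.6% and 43.7% in treated against naive mice.

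With the chemosensory term 42 of the 52 log2 fold changes were positive in EAE against naive mice (median 0.31) and 41 in treated against naive mice (median 0.35). The log2 fold change turned sign for Myc (-0.0357), Ncl (-0.88), Polr1b (-0.02) and Ubtf (-0.43) in EAE against naive mice, for Myc (-0.13) and Npm1 (-0.0448) in treated against EAE mice, and for Myc (-0.16) and Ncl (-1.65) in treated against naive mice. Without scaling it turned for Myc (-0.0068), Npm1 (-0.0229) and Polr1a (-0.0159) in treated against EAE mice. With 1 library left out, Rrn3 in EAE against naive mice lay between -0.0784 and 0.0621, Myc in treated against EAE mice between -0.0111 and 0.1522, Polr1a there between -0.0015 and 0.1100, and Ncl in treated against naive mice between -0.0690 and 0.2872. The chemosensory share did not overlap between the groups, so log2 fold changes from the fit with that term cannot be separated from the term. The cause of the other changes of sign was not tested. Pseudocounts of 10 and 0.1, both filters and the model without the missing directions left the number of the 52 genes that rose within 1.5 times its value. That model raised the shares of all genes to 16.0% higher and 11.0% lower in EAE and 17.8% and 12.3% in treated against naive mice. No paired analysis was possible because replicate numbers come only from the order of the samples. Depth is unknown, so its part in these limits cannot be given.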
